A study of Mus musculus with 24 samples.

Results

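The cardiac stress response was followed through 10 genes in RNA sequencing counts of 4 tissues of *Trex1*-KO mice. The genes were *Nppa*, *Nppb*, *Ankrd1*, *Xirp2*, *Acta1*, *Atp2a2*, *Pln*, *Ctgf*, *Postn* and *Timp1*, picked by symbol, and all 10 were found among the 54532 genes of each count table through their Ensembl identifiers in GENCODE M21. The tables cover heart, stomach, muscle and tongue, each from control mice and from mice given the STING antagonist SN-011, with 3 libraries in each of the 8 groups and 24 libraries in all. Every group carries the *Trex1* deletion, and there is no wild-type group, so a comparison with SN-011 is between treated and untreated mutants. Per the labels, SN-011 was given at 5 mg/kg, 3 times per week for 4 weeks, and the controls were untreated, while the methods of the study describe another schedule, with a higher dose each day over a shorter course, in mice about a month old, against vehicle. The comparison asks how these genes stood in the hearts of mice whose STING pathway was blocked, with the other tissues for contrast.

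*Trex1* encodes an exonuclease that degrades DNA in the cytosol. Without it, DNA activates the cGAS-STING pathway and type I interferon, and *Trex1*-deficient mice develop inflammatory myocarditis. A heart muscle cell under load or injury turns on a set of genes that are low in the resting ventricle of the adult. Among them are the natriuretic peptides ANP (*Nppa*) and BNP (*Nppb*), hormones that are released from stretched myocardium and promote loss of salt and water. *Ankrd1*, which encodes a titin-binding protein that also enters the nucleus, *Xirp2*, an actin-binding protein of the intercalated disc, and *Acta1*, the skeletal isoform of sarcomeric actin, are load-responsive as well. *Atp2a2* encodes the calcium pump SERCA2 of the sarcoplasmic reticulum and *Pln* encodes phospholamban, which restrains that pump, and a fall of the pump relative to its inhibitor is a known feature of the failing heart. *Ctgf* (*Ccn2* in the annotation), a matricellular protein that responds to TGF-beta and YAP, *Postn*, a marker of activated fibroblasts, and *Timp1*, an inhibitor of metalloproteinases, stand for the repair of the matrix.

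The stretch of DNA before the start of 4 of these genes is shown because they are classical load-responsive genes of the heart and their counts are the ones compared below. RefSeq windows on GRCm38.p6 were available for 8 of the 10 genes, with a second start for *Postn*. *Atp2a2* and *Ctgf* had no entry in that table. Each sequence is the 250 bases before the RefSeq start, on the strand of the gene. Capitals mark matches on either strand to the MCAT motif (GGAATG), the GATA motif (TGATAA or AGATAA), the NKX motif (TNAAGTG) and the CArG box. The windows are chr4:148000472-148000721 on the plus strand for *Nppa*, chr4:147985650-147985899 on the plus strand for *Nppb*, chr19:36119845-36120094 on the minus strand for *Ankrd1* and chr8:123894776-123895025 on the minus strand for *Acta1*.
Nppa: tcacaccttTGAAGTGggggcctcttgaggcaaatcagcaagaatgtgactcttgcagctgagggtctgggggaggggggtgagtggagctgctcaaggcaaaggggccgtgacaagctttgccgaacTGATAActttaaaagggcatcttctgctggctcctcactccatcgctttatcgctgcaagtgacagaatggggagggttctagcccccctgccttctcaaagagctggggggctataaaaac
Nppb: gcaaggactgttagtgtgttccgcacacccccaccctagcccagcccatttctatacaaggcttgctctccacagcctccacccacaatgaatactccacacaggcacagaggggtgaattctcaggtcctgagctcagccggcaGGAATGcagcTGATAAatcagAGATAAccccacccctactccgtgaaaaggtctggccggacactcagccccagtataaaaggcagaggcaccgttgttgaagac
Ankrd1: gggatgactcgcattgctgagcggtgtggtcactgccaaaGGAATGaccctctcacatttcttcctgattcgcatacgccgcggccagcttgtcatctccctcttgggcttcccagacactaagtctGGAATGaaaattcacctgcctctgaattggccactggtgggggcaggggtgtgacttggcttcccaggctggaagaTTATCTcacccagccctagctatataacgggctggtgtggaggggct
Acta1: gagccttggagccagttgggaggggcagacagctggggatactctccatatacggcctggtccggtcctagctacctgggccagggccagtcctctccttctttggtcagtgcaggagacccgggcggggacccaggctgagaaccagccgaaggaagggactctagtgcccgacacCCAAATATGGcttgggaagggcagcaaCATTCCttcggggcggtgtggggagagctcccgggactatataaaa
The MCAT motif, bound by TEAD factors, begins at -105 of *Nppb*, at -210 and -123 of *Ankrd1* and at -46 of *Acta1*, counted from the start with -1 as the base just before it. In *Acta1* it follows a CArG box, the site of serum response factor, at -73. GATA matches begin at -122 of *Nppa*, at -95 and -84 of *Nppb* and at -47 of *Ankrd1*, and *Nppa* alone of the 8 genes has an NKX match, at -241. Among 300-base windows around the start (the 250 bases and the 50 that follow), MCAT was found in 4 of the 8 genes and in 14.7% of all 32851 windows, and GATA in 4 of 8 and in 18.6%. The CArG box was found in 1 of 8 and in 1.63% of all windows, the NKX motif in 1 and in 11.5%, MEF2 in 1 (*Xirp2*, at -74) and in 3.19%, and TATAAA in 5 and in 13.6%. The motif of the interferon-stimulated response element was in 0 of the 8 and in 3.44% of all windows. These are matches of letters only. Positions follow the RefSeq starts, which were not checked: TATAAA began at -7 of *Acta1* and -9 of *Nppa*, but at -31 of *Nppb*. These starts can differ from the GENCODE gene bounds given below. The *Ankrd1* window lies within the bounds of its gene, and the *Nppb* window reaches into its own.

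Total counts ranged from 14253416 to 18443329 per library, with a median of 16221409. Levels are given in CPM, the count scaled to library size, after TMM normalization, which corrects for differences in composition, and the abundance that depth can show is set by counting error, so that 3 counts over a group were taken as the floor. *Trex1* had 0 counts in all 24 libraries, which does not check the labels because no wild-type library was sequenced for comparison here. Control replicate 1 of every tissue stood apart by sex-linked transcripts, with 3060 to 13811 counts of *Xist* and 0 to 3 of *Ddx3y*, against 0 to 20 and 825 to 1898 in the other 20 libraries. The sex of these 4 controls thus differs from that of all SN-011 libraries. Values without heart control 1 are given for *Nppb*, *Nppa*, *Ctgf* and *Timp1*. For the other genes and the lists in the heart, the part of sex was not tested. Only 11546 genes were detected in muscle SN-011 replicate 2, where the other 23 libraries detected 19798 to 24264. The labels give no batch and do not say whether libraries come from separate mice, so p-values measure the spread between these libraries.

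The heart libraries held the markers of their label. The summed level of 6 cardiomyocyte genes (*Myh6*, *Tnnt2*, *Tnni3*, *Actc1*, *Mybpc3* and *Ryr2*) was 29939 to 42276 CPM in control hearts and 42468 to 49063 CPM after SN-011, so the groups did not overlap. The mean of this sum was 1.27 times higher in the SN-011 libraries. The sum of the ventricular genes *Myl2*, *Myl3* and *Irx4* was likewise apart, at 6121 to 8589 CPM and 9488.5 to 10536 CPM, though *Irx4* itself was lower after SN-011 (28.2 to 41.0 CPM and 21.2 to 27.3 CPM). The sum of 5 fibroblast genes (*Pdgfra*, *Dcn*, *Lum*, *Col1a1* and *Tcf21*) was 1293 to 1664 CPM in controls and 1023 to 1142 CPM after SN-011, lower by a ratio of 0.745, and all 5 estimates were negative. Of these only *Lum*, which encodes a proteoglycan of collagen fibrils, passed the test, and it fell by 0.90 on the log2 scale (SE 0.16, edgeR adjusted p = 0.0481). Macrophage, T cell, endothelial and smooth muscle sums overlapped between the groups. All 5 T cell and all 5 smooth muscle estimates were nonetheless negative (medians -0.48 and -0.15), as were 4 of 5 macrophage and 3 of 4 endothelial ones. The red cell sum was 2.15 times higher after SN-011 with separate groups. Stomach genes such as *Atp4a* summed to 783 CPM in control 2 and to 2.28 to 70.9 CPM in the other 5 hearts. In muscle they summed to 22.8 to 264 CPM in controls and 0 to 11.3 CPM after SN-011. In tongue the sums were 33.6 to 974 and 6.51 to 14.1 CPM. Red cell sums were higher after SN-011 in stomach, muscle and tongue as well, by ratios of 2.18, 2.46 and 2.83. These groups were apart in muscle and overlapped in stomach and tongue. Whether tissue handling differed with treatment was not tested. In bulk tissue, fewer cells of a type and less RNA per cell cannot be told apart, and the part of these marker shifts in the results on the 10 genes was not tested beyond the ratios given beside them.

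In the heart, 137 of 16151 genes tested passed an adjusted p of 0.05 (edgeR quasi-likelihood test), a background of 0.848%. That number rests on single libraries, and leaving out each in turn gave 1 (without SN-011 replicate 2) to 787 (without control 2). None of the 10 stress genes did (0 of 10). The estimates were positive for 8 and negative for 2 (7 and 3 with library size alone as the scaling), with a median log2 fold change of 0.28 against -0.01 over all genes tested. At an unadjusted p under 0.05, 3 were higher after SN-011 (*Nppb*, *Ctgf* and *Xirp2*) and 0 were lower, where 10.8% of all genes were called higher and 11.6% lower. In 2 of the 10, *Nppb* and *Ctgf*, all 3 SN-011 libraries lay above all 3 controls, and 14.1% of all genes did so, while 13.1% lay apart in the other direction.

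**Figure D1:**
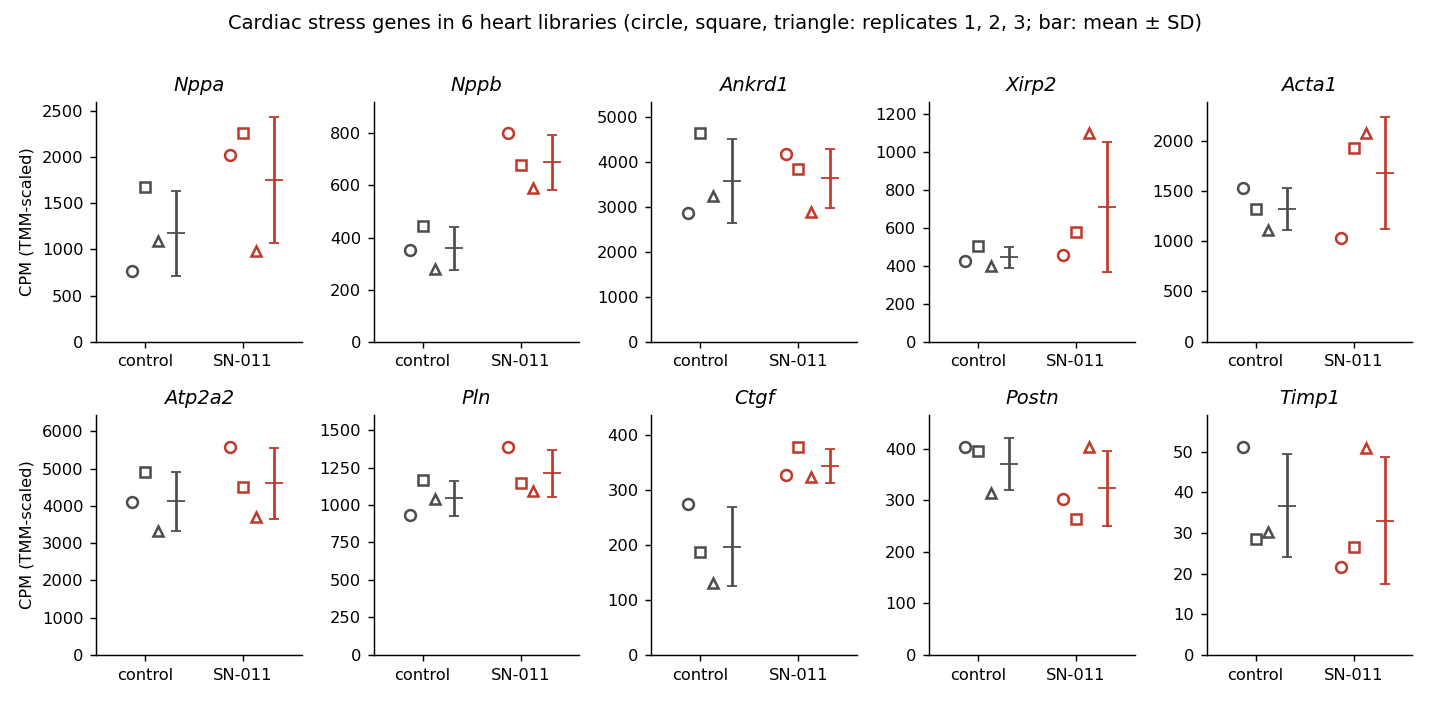
CPM of each of the 10 genes (vertical axis, TMM-scaled, from 0) in the 3 control and 3 SN-011 heart libraries, with circle, square and triangle for replicates 1, 2 and 3 and a bar for the mean ± SD. The SN-011 points of *Nppb* and *Ctgf* all lie above the controls, and those of the other 8 genes overlap them.

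*Nppb* (ENSMUSG00000029019, chromosome 4, 147985788 to 147987205 of GRCm38), which encodes BNP, had the highest estimate of the 10. It measured 351, 443 and 280.1 CPM in control hearts 1 to 3 and 800.1, 679.7 and 589 CPM in SN-011 hearts 1 to 3. Every treated heart thus held more *Nppb* RNA than every control. The means were 358 ± 81.7 CPM and 689.6 ± 106 CPM (SD, n = 3 each), a 1.93-fold difference and a log2 fold change of 0.95 (SE 0.19, 95% confidence interval 0.51 to 1.38). In the edgeR test the p was 8.4e-04 and the adjusted p 0.0587, just above the threshold of 0.05, and the exact permutation test gave 0.1, the smallest that 3 libraries against 3 allow. The call depended on how the counts were handled. *Nppb* passed in 6 of 16 alternatives, among them DESeq2 (adjusted p = 4.2e-05), edgeR's exact test (0.00108), a filter of at least 10 counts in every sample (0.0445) and the fit without control 2 (0.0265), and adjusted p-values over the alternatives ranged from 2.3e-05 to 0.919. These settings called more genes in general: 8.43% in DESeq2, 5.68% in the exact test and 4.74% without control 2. The estimate stayed positive in all 16, at 0.79 to 1.13, and it was 0.92 (adjusted p = 0.0922) without control 1.

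The sum of cardiomyocyte markers was also higher in these libraries, with a ratio of means of 1.27. Per 1000 CPM of the 6 cardiomyocyte genes, a ratio chosen after the values were seen, *Nppb* measured 9.10, 10.5 and 9.35 CPM in controls and 16.4, 13.9 and 13.9 CPM after SN-011. The groups remained apart on this scale, with a ratio of means of 1.52, but overlapped when *Nppb* was set against atrial genes (below). The part of cell makeup in the *Nppb* difference was not tested.

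*Nppa* (ENSMUSG00000041616, chromosome 4, 148000722 to 148002079), the neighbouring gene for ANP, which is made chiefly in the atria, was more uneven. Control hearts held 761, 1669 and 1091 CPM and SN-011 hearts 2019, 2254 and 978 CPM, and the groups overlapped because SN-011 replicate 3 lay within the range of the controls. The means were 1174 ± 459.7 CPM and 1750.5 ± 679 CPM (SD, n = 3 each), with a log2 fold change of 0.58 (SE 0.35, 95% confidence interval -0.21 to 1.37, edgeR adjusted p = 0.367). The estimate was 0.33 without control 1 and 0.92 without control 2. *Nppa* shares 532 exonic bases with the antisense gene *Gm13054*, and it is not certain that counting used strand.

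Atrial genes varied with *Nppa* from library to library. The summed level of *Myl7*, *Myl4*, *Sln* and *Bmp10* was 629, 1802 and 1255 CPM in controls and 1846, 2037 and 139 CPM after SN-011. Control 1 and SN-011 replicate 3, the libraries with the lowest sums, were also those with the lowest *Nppa*. For *Myl7*, the atrial light chain, those 2 libraries gave 73.6 and 39.8 CPM against 353 to 666 CPM in the other 4. *Bmp10* was at 0 in control 2 and at 1.51 CPM in SN-011 replicate 3, while control 3 held 213 CPM and SN-011 replicate 1 held 510.3 CPM. Per 1000 CPM of the atrial sum, *Nppa* was 869.8 to 1211 CPM in controls and 1094, 1107 and 7055 CPM after SN-011. SN-011 replicate 3 thus held much *Nppa* for its atrial genes. On the same scale *Nppb* was 559, 246 and 223 CPM in controls and 433, 334 and 4249 CPM after SN-011. These *Nppb* groups overlapped (exact permutation test, p = 0.5), since control 1 lay above SN-011 replicates 1 and 2. The ratios of control 1 and SN-011 replicate 3 rest on low atrial sums, so this test cannot decide whether *Nppb* differed for a given atrial content. Without both libraries of low atrial level, an alternative chosen after these levels were seen, the log2 fold change of *Nppa* was 0.62 (adjusted p = 0.30) and that of *Nppb* was 1.02 (adjusted p = 0.139). Both are edgeR estimates on 2 libraries against 2.

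**Figure D2:**
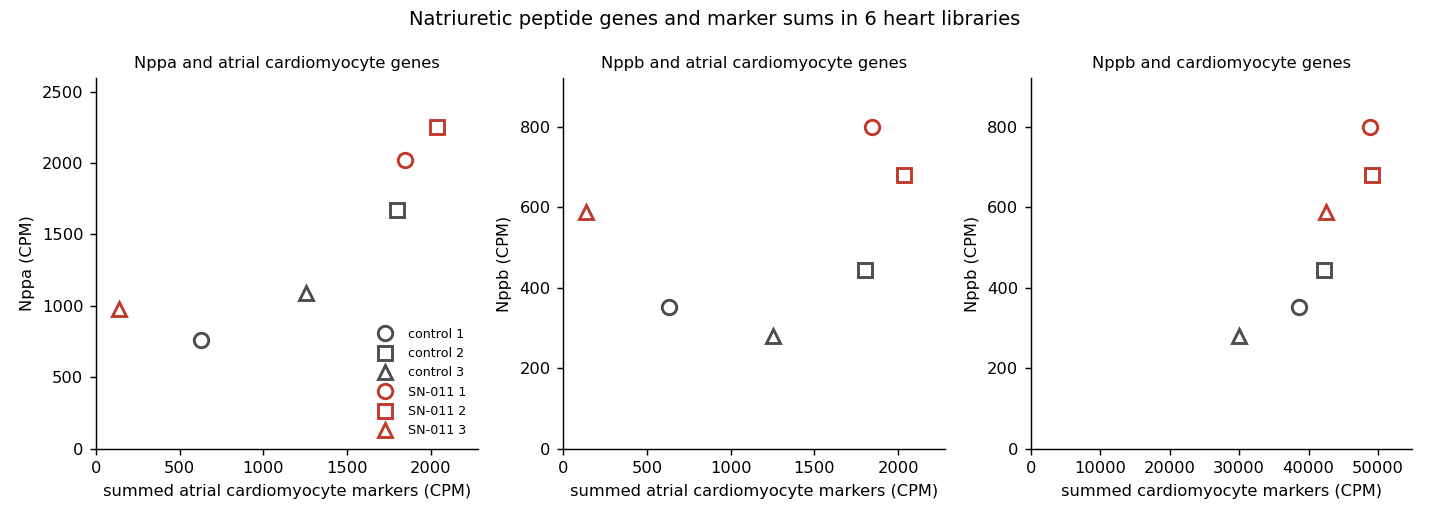
*Nppa* and *Nppb* (vertical axes, CPM) against the summed CPM of 4 atrial or 6 cardiomyocyte marker genes (horizontal axes) in the 6 heart libraries, with grey for control and red for SN-011. *Nppa* is lowest in control 1 and SN-011 replicate 3, at atrial sums of 629 and 139 CPM, whereas *Nppb* of SN-011 replicate 3 (589 CPM) exceeds every control.

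Genes that process the peptides or carry their signal were split in direction. Of 12 listed, 10 were tested and 0 passed, 5 estimates were positive and 5 negative, the median was 0.09, and 2 were higher at an unadjusted p under 0.05, as were 10.8% of all heart genes. *Corin*, the protease that cleaves pro-ANP, was 104 ± 18.4 CPM in controls and 156 ± 40.0 CPM after SN-011 (log2 fold change 0.59, SE 0.20, edgeR adjusted p = 0.137). *Furin*, a protease that cleaves pro-BNP, was 126 ± 36.2 and 174 ± 6.52 CPM (0.47, SE 0.19, adjusted p = 0.185). *Pde9a*, a phosphodiesterase that removes cGMP, was 7.61 ± 2.24 and 4.94 ± 1.10 CPM (-0.62, SE 0.28, adjusted p = 0.234). The groups overlapped for each of these 3 genes.

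*Xirp2* (ENSMUSG00000027022, chromosome 2, 67446002 to 67526614) had the highest estimate of the sarcomere-associated genes, and that estimate rested on 1 library. Control hearts measured 426, 507 and 400.1 CPM and SN-011 hearts 456, 578 and 1099 CPM. SN-011 replicate 3 was far above the rest, while replicates 1 and 2 were close to the controls. The means were 445 ± 55.9 CPM and 711 ± 341 CPM (SD, n = 3 each), a log2 fold change of 0.68 (SE 0.29, edgeR adjusted p = 0.214), and without SN-011 replicate 3 it was 0.21 (adjusted p = 0.566).

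*Acta1* (ENSMUSG00000031972, chromosome 8, 123891769 to 123894751) showed a like pattern with more overlap. Controls held 1528, 1323 and 1116 CPM, and SN-011 hearts held 1036, 1926 and 2074 CPM. The lowest of all 6 libraries was SN-011 replicate 1, so treated hearts lay on both sides of the controls. The log2 fold change was 0.34 (SE 0.26, 95% confidence interval -0.24 to 0.93, edgeR adjusted p = 0.462).

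*Ankrd1* (ENSMUSG00000024803, chromosome 19, 36111961 to 36120099), although among the best known stretch-responsive genes, gave nearly equal means. It was 2861, 4637 and 3246 CPM in controls and 4167, 3849 and 2897 CPM after SN-011, or 3581 ± 934 and 3637 ± 661 CPM (SD, n = 3 each). The log2 fold change was 0.02 with a 95% confidence interval of -0.50 to 0.54, and its sign turned to -0.13 when libraries were scaled by size alone. Relative to the cardiomyocyte sum, *Ankrd1* was at 0.794 of the control mean, *Acta1* at 1.01 and *Xirp2* at 1.29, with groups that overlapped in each case.

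A wider list of hypertrophy and stretch-response genes gave positive estimates throughout. Of 20 listed, 19 were tested, all 19 estimates were positive with a median of 0.41, 8 were higher at an unadjusted p under 0.05, 7 lay apart and 0 passed after adjustment. Of all heart genes, 10.8% were higher at that p and 14.1% lay apart higher. With library size alone as the scaling, which moves the median of all heart genes from -0.01 to -0.16, 15 were positive and 4 negative. *Csrp3*, a Z-disc protein of stretch sensing, measured 1074 ± 138 CPM in controls and 1488 ± 68.8 CPM after SN-011 (0.47, SE 0.15, edgeR adjusted p = 0.129). *Tnfrsf12a*, the receptor for the cytokine TWEAK, measured 74.7 ± 24.5 and 116 ± 12.1 CPM (0.63, SE 0.21, adjusted p = 0.132). *Des*, the muscle intermediate filament desmin, measured 3093 ± 383 and 4270.4 ± 281 CPM (0.47, SE 0.17, adjusted p = 0.161). The 6 cardiomyocyte markers had a median estimate of 0.36 in the same libraries, and their part in these values was not tested. *Actc1* belongs to both lists, so they are not independent.

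*Atp2a2* (ENSMUSG00000029467, chromosome 5, 122453513 to 122502225), the pump SERCA2, was 4113, 4910.0 and 3337 CPM in controls and 5594, 4499 and 3712 CPM after SN-011. The ranges overlapped, with means of 4120.1 ± 786 and 4602 ± 945 CPM (SD, n = 3 each) and a log2 fold change of 0.16 (SE 0.22, 95% confidence interval -0.34 to 0.66, edgeR adjusted p = 0.709). *Pln* (ENSMUSG00000038583, chromosome 10, 53337667 to 53345987), its inhibitor, was 933, 1166 and 1038 CPM in controls and 1390.1, 1146 and 1096 CPM after SN-011. Its means were 1046 ± 117 and 1211 ± 157 CPM, with a log2 fold change of 0.21 (SE 0.16, 95% confidence interval -0.15 to 0.57, adjusted p = 0.462). Neither gene of the pair differed beyond the spread of its libraries, and relative to the cardiomyocyte sum they stood at 0.879 and 0.899 of the control mean. *Pln* shares 1644 exonic bases with *Gm47644* and 141 with *Cep85l* on the other strand, and *Atp2a2* shares 83 with *Gm43361*.

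Their partners in calcium cycling were as mixed. All 18 genes of the list were tested, 9 estimates were positive and 9 negative, the median was 0.07, and 0 passed, with 3 higher and 1 lower at an unadjusted p under 0.05. Of all heart genes, 10.8% were higher and 11.6% lower at that p. *S100a1*, a calcium sensor that raises SERCA2 and ryanodine receptor activity, measured 285, 416 and 310.4 CPM in controls and 529, 613 and 475 CPM after SN-011. All treated hearts were above all controls (log2 fold change 0.68, SE 0.17, edgeR adjusted p = 0.0892). *Cacnb2*, the beta subunit of the L-type calcium channel, was apart in the other direction, at 42.1 ± 3.81 and 29.6 ± 5.84 CPM (-0.51, SE 0.16, adjusted p = 0.127). *Cacna1c*, the pore of that channel, was 252 ± 47.0 and 341 ± 41.4 CPM (0.43, SE 0.16, adjusted p = 0.168).

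*Ctgf* (ENSMUSG00000019997, chromosome 10, 24595442 to 24598683) was the other gene with separate groups. It was 274, 187 and 131 CPM in control hearts and 328, 379.5 and 324 CPM after SN-011. The treated hearts were close to each other and above all controls, of which control 1 was the highest. The means were 197 ± 72.5 and 344 ± 30.9 CPM (SD, n = 3 each), a 1.74-fold difference with a log2 fold change of 0.80 (SE 0.24, 95% confidence interval 0.26 to 1.34, edgeR adjusted p = 0.113). It passed in 4 of 16 alternatives: without a filter on low counts, in DESeq2 (adjusted p = 0.0102), in edgeR's exact test (0.0385) and without control 1 (log2 fold change 1.10, adjusted p = 0.0450), over a range of 4.6e-04 to 0.843. The sum of fibroblast markers was lower in the same treated libraries. Per 1000 CPM of the 5 fibroblast genes, *Ctgf* was 136 ± 34.7 CPM in controls and 323 ± 43.0 CPM after SN-011. That is a ratio of 2.38 with separate groups, chosen after the values were seen, and the lower denominator widens it. The cardiomyocyte sum was instead higher after SN-011. Control 1 held 274 CPM of *Ctgf* at a cardiomyocyte sum of 38643 CPM, and SN-011 replicate 1 held 328 CPM at 48827 CPM. Relative to that sum, *Ctgf* was higher in control 1 than in SN-011 replicate 1, so the groups overlap on that scale. The separation thus depends on the marker sum chosen. *Ctgf* shares 665 exonic bases with *Gm15270*.

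*Postn* (ENSMUSG00000027750, chromosome 3, 54361109 to 54391037) was 403, 395 and 313 CPM in controls and 302, 263 and 404 CPM after SN-011. The highest treated heart, replicate 3, was level with the highest controls, and the log2 fold change was -0.20 (SE 0.18, 95% confidence interval -0.61 to 0.21, edgeR adjusted p = 0.557). *Timp1* (ENSMUSG00000001131, chromosome X, 20870166 to 20874735) was 51.3, 28.5 and 30.2 CPM in controls and 21.6, 26.6 and 50.8 CPM after SN-011. Each group had 1 library well above its other 2, and the log2 fold change was -0.15 (SE 0.33, 95% confidence interval -0.90 to 0.59, adjusted p = 0.821). It was 0.15 without control 1 and -0.62 without SN-011 replicate 3.

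The list of matrix and fibrosis genes lay on the other side from *Ctgf*. Of 24 tested, 20 estimates were negative and 4 positive with a median of -0.39, 10 were lower and 0 higher at an unadjusted p under 0.05, 8 lay apart lower and 1 apart higher, and 0 passed. Of all heart genes, 11.6% were lower and 10.8% higher at that p, and 13.1% lay apart lower and 14.1% apart higher. *Cyr61*, the closest relative of *Ctgf* in this list and like it a target of YAP, was 89.2, 72.9 and 58.7 CPM in controls and 42.5, 39.9 and 43.9 CPM after SN-011. All treated hearts were below all controls (log2 fold change -0.81, SE 0.15, edgeR adjusted p = 0.0543), so these related genes stood apart in opposite directions. *Col3a1*, a fibrillar collagen, measured 862 ± 243 and 378 ± 95.8 CPM (-1.19, SE 0.24, adjusted p = 0.0565). *Loxl1*, which cross-links elastin, measured 108 ± 27.0 and 62.5 ± 4.23 CPM (-0.79, SE 0.17, adjusted p = 0.0669). *Col1a1* belongs to this list and to the fibroblast markers, so the lists are not independent.

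Among metalloproteinases and their inhibitors, 11 of 12 were tested, 9 estimates were negative and 2 positive with a median of -0.41, and 0 passed, with 1 higher and 4 lower at an unadjusted p under 0.05. Of all heart genes, 10.8% were higher and 11.6% lower at that p. *Timp4*, an inhibitor that is abundant in heart muscle, was the exception: it measured 20.7, 17.5 and 5.4 CPM in controls and 41.4, 45.2 and 51.7 CPM after SN-011. All treated hearts held more *Timp4* RNA than any control (14.5 ± 8.06 and 46.1 ± 5.16 CPM, log2 fold change 1.67, SE 0.39, edgeR adjusted p = 0.0758). *Mmp14*, a membrane-bound collagenase, was 119.6 ± 29.5 and 70.1 ± 7.81 CPM (-0.77, SE 0.18, adjusted p = 0.0754), and *Mmp2*, the gelatinase it activates, was 253 ± 16.6 and 182 ± 17.7 CPM (-0.48, SE 0.12, adjusted p = 0.0892). DESeq2 called 1 of the 10 natriuretic pathway genes, 1 of 18 calcium partners, 4 of 19 hypertrophy genes, 6 of 24 matrix genes and 3 of 11 metalloproteinase genes, and edgeR's exact test called 0, 1, 0, 5 and 3. Over all genes tested, DESeq2 called 8.43% and the exact test 5.68%.

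**Figure D3:**
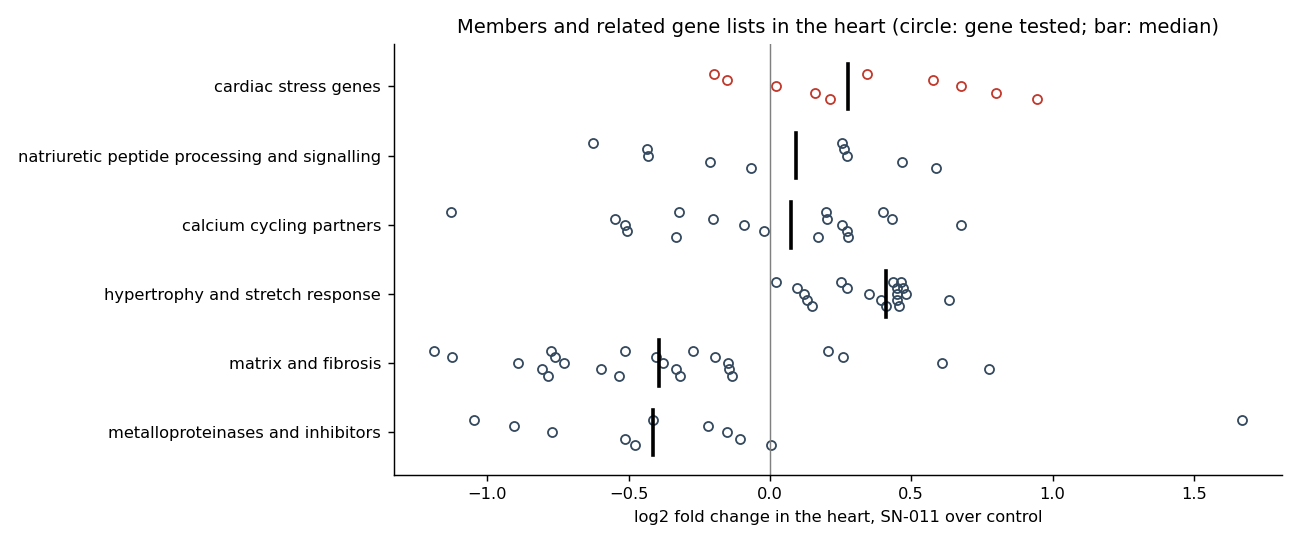
Log2 fold change in the heart, SN-011 over control (horizontal axis), of the 10 stress genes and of the tested genes of 5 related lists, with a circle per gene and a bar at the median. The hypertrophy list lies wholly above 0 under TMM, and 15 of 19 genes do with library size alone (median 0.41 under TMM), whereas most matrix genes (median -0.39) and metalloproteinase genes (median -0.41) lie below it, with *Timp4* at 1.67.

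Outside the heart, most of the 10 genes could be followed. The test covered 7 in stomach, 8 in muscle and 9 in tongue, and none passed after adjustment. The background was as low: 0% of 17031 stomach genes, 0.0141% of 14198 muscle genes (2 genes) and 0% of 16587 tongue genes passed in edgeR's quasi-likelihood test. At an unadjusted p under 0.05, 13.2% of stomach genes, 8.96% of muscle genes and 5.17% of tongue genes were higher and 5.8% of muscle genes were lower. That was 2241 higher and 1942 lower genes in the stomach and 858 and 1216 in the tongue, and DESeq2 called 2389 and 418 genes in these tissues. Single libraries weighed on these numbers as well, since 1103 muscle genes passed without SN-011 replicate 2, 2135 tongue genes without control 1, and 64 and 59 stomach genes without control 1 and without SN-011 replicate 2. The members' medians were 0.75, 0.23 and 0.18, against 0.00, -0.08 and -0.01 over all genes.

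**Figure D4:**
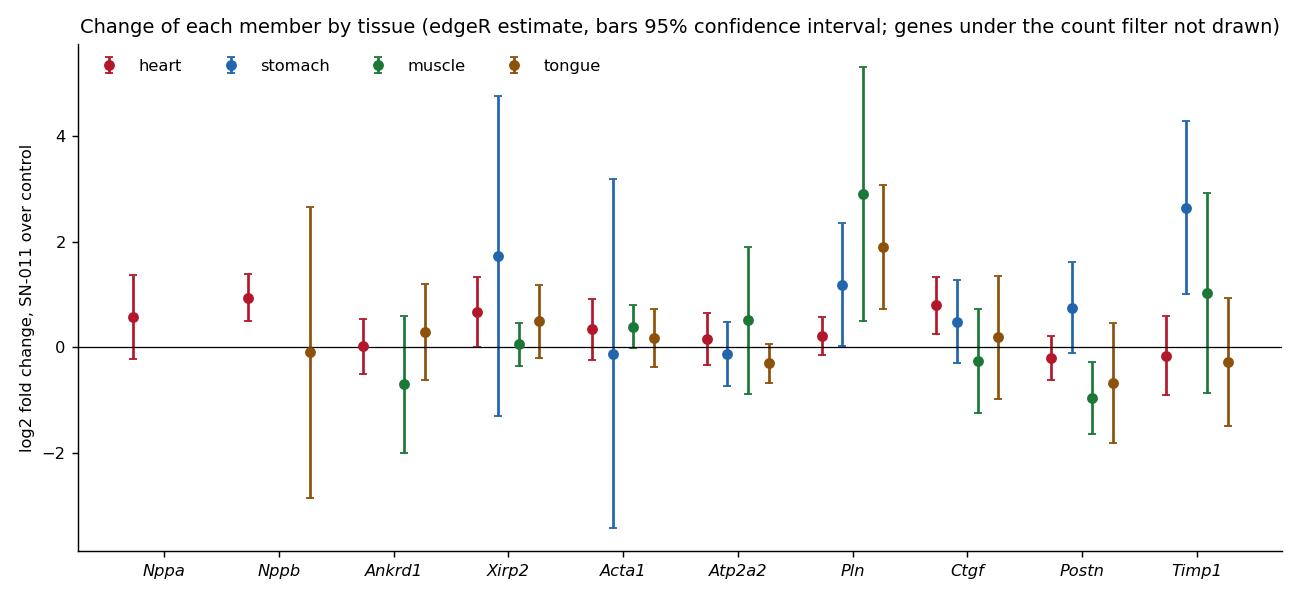
Log2 fold change, SN-011 over control (vertical axis, edgeR estimate with 95% confidence interval), of each gene in heart, stomach, muscle and tongue, with genes under the count filter left out. Intervals outside the heart are wide for *Xirp2* and *Acta1* in the stomach and for *Nppb* in the tongue, and *Pln* lies above 0 in stomach, muscle and tongue.

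*Pln* had separate groups in muscle and in tongue, at levels far below those of the heart and with no call after adjustment. In the muscle it was 0.844, 0.0566 and 0.252 CPM in controls (16, 1 and 5 counts) and 3.37, 3.51 and 1.93 CPM after SN-011 (52, 43 and 34 counts). The groups were apart (log2 fold change 2.91, SE 1.00, edgeR adjusted p = 0.277). In the tongue it was 0.511, 0.388 and 0.250 CPM in controls and 2.09, 0.970 and 1.31 CPM after SN-011, again apart (1.90, SE 0.50, adjusted p = 0.282). In the stomach the values were 6.94, 3.99 and 14.4 CPM and 28.9, 13.1 and 16.0 CPM, which overlapped (1.19, SE 0.51, adjusted p = 0.196). Markers of slow fibres, which use *Pln*, summed to 66.6 to 371 CPM in control muscle and 331 to 782 CPM after SN-011, and their part in the muscle values was not tested.

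Besides *Pln*, groups were apart in the muscle for *Acta1* and *Postn*. *Acta1*, the main actin of skeletal muscle, was 32553, 39469 and 37766 CPM in controls and 42435, 56972 and 45044 CPM after SN-011 (log2 fold change 0.40, SE 0.17, edgeR adjusted p = 0.343). The sum of fast fibre genes in these libraries was apart as well, at 97649 to 107608 CPM and 118214 to 143949 CPM, a ratio of 1.24, and both were highest in SN-011 replicate 2, the library with few detected genes. The part of fibre content in the *Acta1* values was not tested. *Postn* was 41.4, 19.2 and 28.8 CPM in controls and 16.2, 14.3 and 15.5 CPM after SN-011 (-0.96, SE 0.29, adjusted p = 0.232). That is 2 of 8 apart higher and 1 of 8 apart lower in the muscle, where 14.7% and 19.8% of all genes were, and 1 of 9 apart higher in the tongue (*Pln*), where 9.4% were. In the same muscle libraries the fibroblast sum was 589 to 790.1 CPM in controls and 276 to 497 CPM after SN-011, and its part in the *Postn* values was not tested.

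In the stomach, *Timp1* had the highest estimate of the 10. It was 5.89, 3.18 and 2.19 CPM in controls and 37.5, 4.68 and 28.0 CPM after SN-011. SN-011 replicates 1 and 3 were far above the controls and replicate 2 lay among them (log2 fold change 2.65, SE 0.72, edgeR adjusted p = 0.0953). It passed in DESeq2 (adjusted p = 0.00473) and in 3 other alternatives of 15, over a range of 0.00385 to 0.307. *Postn* had the same order among treated libraries, at 377, 138 and 249.6 CPM against 137 to 160.0 CPM in controls (0.75, SE 0.38, adjusted p = 0.254). So did the fibroblast sum, at 1355, 366 and 946 CPM against 338 to 599.7 CPM, and the sum of squamous epithelium genes, at 1483, 449 and 892 CPM against 111 to 237 CPM. The part of such differences in tissue makeup was not tested.

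*Acta1* and *Xirp2* in the stomach went with skeletal fibre markers in single libraries. *Acta1* was 255, 2.37 and 1.87 CPM in controls and 94.8, 93.1 and 51.1 CPM after SN-011, and *Xirp2* was 2.82, 0.0624 and 0 CPM and 3.77, 3.30 and 2.21 CPM. The fast fibre genes summed to 342, 109.6 and 99.6 CPM in those controls and 296 to 351 CPM after SN-011. Control 1 thus resembled the treated stomachs for both genes and for the markers. Without that library the log2 fold change of *Acta1* went from -0.12 to 5.20 (edgeR adjusted p = 0.0216), where 0.356% of all genes passed. For *Xirp2* only 1 and 0 counts remained in the controls, against 64, 50 and 36 after SN-011.

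The natriuretic peptide genes were close to absent outside the heart. In the stomach, *Nppa* had 6 counts in 1 control and 0 in the other 5 libraries, and *Nppb* had 6 and 4 counts in SN-011 replicates 1 and 3 and 0 elsewhere. In the muscle, *Nppa* had 2, 0 and 2 counts in controls and 56, 0 and 37 after SN-011, and *Nppb* had 0 in all controls and 17, 0 and 14 after SN-011. Replicates 1 and 3 of treated muscle also held *Myh6*, the cardiac myosin heavy chain, at 14.6 and 10.7 CPM, while replicate 2 held 0 and the controls held 2.52 to 4.27 CPM. *Myl7* and *Bmp10* were at 0 in all 3 treated muscles, and whether these reads come from the muscle itself was not tested. In the tongue, *Nppb* was at 0.568 to 1.19 CPM in controls and at 2.33, 0.194 and 0 CPM after SN-011 (log2 fold change -0.09, SE 1.17, adjusted p = 0.979).

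The other values outside the heart showed no separate groups. *Atp2a2* was 289.8 to 335 CPM in control and 269.7 to 317 CPM in treated stomach, 64.0 to 135 and 43.6 to 221 CPM in muscle, and 154 to 203 and 128 to 167 CPM in tongue. *Ctgf* was 10.2 to 21.6 and 16.1 to 26.9 CPM in stomach, 13.9 to 29.7 and 10.8 to 27.3 CPM in muscle, and 13.1 to 48.5 and 24.5 to 38.7 CPM in tongue. Without tongue control 1, the library at 48.5 CPM, the log2 fold change of *Ctgf* in the tongue went from 0.19 to 1.03 (edgeR adjusted p = 0.0294), in a fit where 12.5% of all genes passed. *Ankrd1* was 12.9 to 51.6 and 10.8 to 21.9 CPM in muscle and 38.9 to 105 and 60.9 to 105 CPM in tongue, and had 1 to 2 counts in each control stomach and 26, 1 and 32 after SN-011. *Xirp2* was 1351 to 1618 and 1246 to 1798 CPM in muscle and 223 to 361 and 314 to 615 CPM in tongue. *Acta1* in the tongue was 4851 to 8515 and 6872 to 8406 CPM, and *Postn* there was 13.5 to 44.4 and 12.1 to 20.7 CPM. *Timp1* was 1.58 to 2.82 and 1.82 to 10.03 CPM in muscle and 3.62 to 7.78 and 1.75 to 6.85 CPM in tongue.

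Whether the heart responded otherwise than another tissue was tested directly, in a joint fit of all 24 libraries. The difference between the change in heart and that in stomach passed for 2.01% of 19731 genes (396), that between heart and muscle for 0.00507% (1 gene), and that between heart and tongue for 0% (0 genes). The 396 genes became 15 without heart control 3, 1118 without stomach control 3 and 13 when heart and stomach were fitted alone. None of the 10 genes was among those that passed in the joint fit (0 in each contrast). At an unadjusted p under 0.05 the contrasts held 3360, 1303 and 559 genes, of which 2, 3 and 1 were among the 10. Those were *Ankrd1* and *Timp1* against stomach, *Pln*, *Nppa* and *Nppb* against muscle, and *Pln* against tongue. *Ankrd1* in stomach and *Nppa* and *Nppb* in muscle were under the count filter there. Their differences rest on control counts near the floor. The lowest p was that of *Pln* between heart and muscle (difference in log2 fold change -2.60, SE 0.70, edgeR adjusted p = 0.375). *Timp1* differed by -2.76 between heart and stomach (SE 0.93, adjusted p = 0.126), and *Ankrd1*, with 1 to 2 counts in each control stomach, had an adjusted p of 0.121. The difference for *Ctgf* was 0.33 against stomach, 1.09 against muscle and 0.60 against tongue, with adjusted p-values of 0.865, 0.803 and 1.00, so a response particular to the heart was not shown for it.

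The levels of these genes, in contrast, separated the tissues. In control mice all 10 differed between heart and stomach and all 10 were higher in the heart, where 42.5% of genes differed and 21% were higher in the heart. Against muscle 10 of 10 differed and 8 were higher in the heart (background 33.7% and 17%), and against tongue 8 of 10 differed, all 8 higher in the heart (29.1% and 13.5%). The exceptions were genes of striated muscle in general: *Acta1* was higher in muscle than in heart (log2 difference, heart minus muscle, -5.67), *Xirp2* was too (-2.60), and neither differed between heart and tongue past the threshold (-2.27, adjusted p = 0.104, and 0.60, adjusted p = 0.514). *Nppa* in stomach, muscle and tongue, *Nppb* in stomach and muscle, and *Ankrd1* in stomach were under the count filter of those tissues. They entered the joint fit through the heart libraries, so their place in these counts was fixed in advance.

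Per kilobase of exon, which allows genes to be compared, the order in control heart was *Nppa*, *Ankrd1*, *Acta1*, *Atp2a2*, *Nppb*, *Pln*, *Ctgf*, *Postn*, *Timp1* and *Xirp2*. *Nppa* was at 1215 ± 466 CPM per kilobase (SD, n = 3), *Ankrd1* at 1111 ± 281 and *Acta1* at 772 ± 123. Next were *Atp2a2* at 607 ± 113, *Nppb* at 411 ± 91.5 and *Pln* at 339.6 ± 35.4. The 4 lowest were *Ctgf* at 61.9 ± 23.0, *Postn* at 38.2 ± 5.14, *Timp1* at 37.1 ± 13.1 and *Xirp2* at 33.3 ± 3.97, and libraries of neighbours in this order overlapped except between *Pln* and *Ctgf*. *Acta1* reached 39349 ± 4499 CPM per kilobase in muscle and 3731 ± 989 in tongue, and *Xirp2* 201 ± 20.9 and 21.9 ± 5.38.

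Across tissues the heart lay apart from the next highest tissue for 8 genes. From counts summed over the control libraries, *Pln* was 129-fold higher in heart than in stomach and 2588-fold and 2905-fold higher than in muscle and tongue. *Ankrd1* was 119-fold and 59.8-fold higher than in muscle and tongue, and *Atp2a2* 14.4-fold, 38.4-fold and 24.1-fold higher than in stomach, muscle and tongue. *Nppb*, with 0 counts in control stomach and control muscle, was at least 6139.9-fold and 6434-fold higher in heart, taking 3 counts over the group as the floor. The repair genes were less restricted: *Ctgf* was 13.9-fold, 8.70-fold and 8.05-fold higher than in stomach, muscle and tongue, *Timp1* 11.8-fold, 16.0-fold and 7.37-fold, and *Postn* 2.74-fold, 11.9-fold and 16.0-fold. Among the lower tissues, tongue and muscle libraries overlapped for *Ankrd1*, *Atp2a2*, *Pln*, *Ctgf*, *Postn* and *Timp1*.

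**Figure D5:**
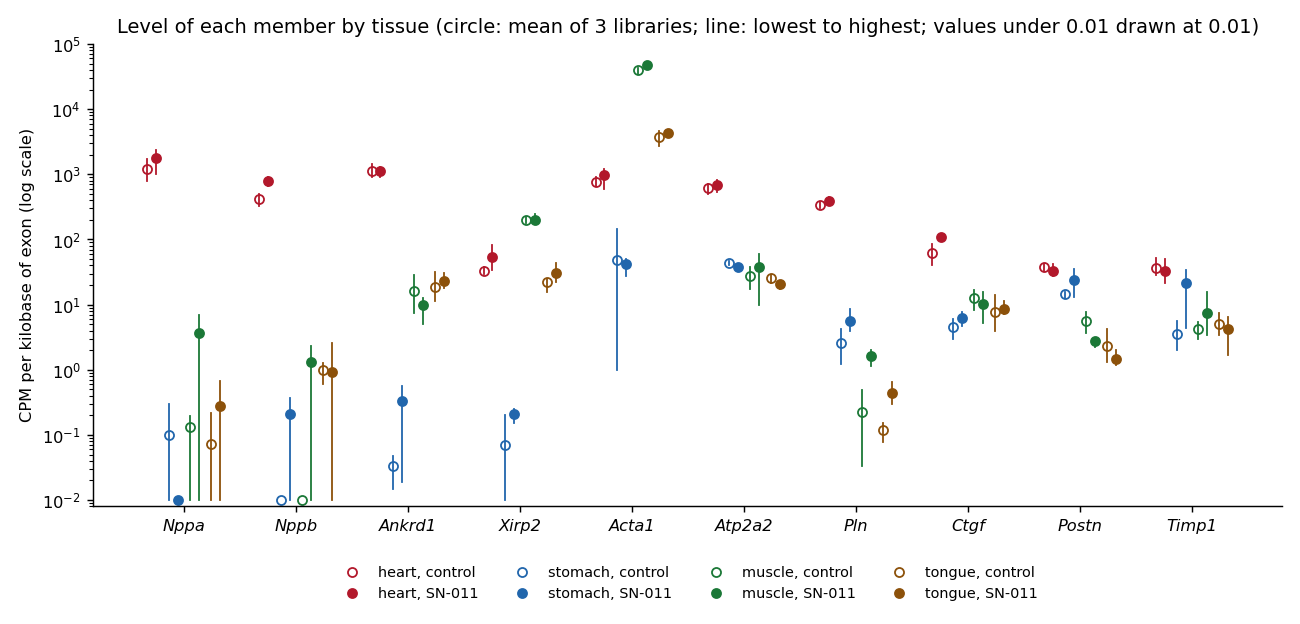
CPM per kilobase of exon (vertical axis, log scale, values under 0.01 drawn at 0.01) of each gene in control (open) and SN-011 (filled) libraries of 4 tissues, with a circle at the mean of 3 libraries and a line from the lowest to the highest. The heart is highest for 8 genes, and muscle for *Acta1* (39349 in controls) and *Xirp2* (201 in controls).

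For each gene, the 2 genes with the most similar profile over the 8 group means were found by the root mean square difference of centred log2 levels. *Lrrc10*, a cardiac protein, was close to both *Nppa* (0.58) and *Nppb* (0.55), with *Mybpc3* (0.65) the other for *Nppa* and *Mylk3* (0.47), the cardiac myosin light chain kinase, for *Nppb*. *Xirp2* was nearest to *Ttn* and *Nrap* (0.35 each), and *Acta1* to *Ckm* (0.45) and *Myl1* (0.56). *Pln* was nearest to *Ryr2* (0.66) and *Ptgds* (1.11), and *Ankrd1* to *Adprhl1* (1.44) and *Csrp3* (1.45), at distances that show no close match for *Ankrd1*. *Atp2a2* had *Gsg1l* and *Kcnd2* (0.33 each), *Ctgf* had *Cp* (0.34) and *Eng* (0.38), *Postn* had *Rgs6* (0.29) and *Pcp4l1* (0.43), and *Timp1* had *Rasl11b* (0.28) and *Sod3* (0.37). The 8 means share libraries within a group, and the distances are a description.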

How the data were processed

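RNA sequencing of heart, stomach, muscle and tongue of *Trex1*-KO mice was used, 3 control and 3 SN-011 libraries per tissue, grouped by the tissue and treatment of their labels. The authors deposited raw counts per gene, without normalization. The submitters' processing notes name HISAT2, HTSeq and mm10, whereas the methods of the study name featureCounts on unique pairs, and whether counting used strand is not certain. Of 54532 identifiers, 54495 are in GENCODE M21, which gave symbols and positions on GRCm38.

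Each tissue was fitted alone with edgeR 4.0.16 in R 4.3.3 (filterByExpr with a minimum count of 10 and minimum total of 15, TMM, quasi-likelihood test, prior count 0.125), two-sided, and p-values were adjusted across the genes of a fit by Benjamini-Hochberg, at a threshold of 0.05. Differences between tissues came from a joint fit of 24 libraries (19731 genes). For single values an exact two-sided permutation test used all 20 ways to split 3 and 3 libraries, and it cannot go below 0.1. Fold changes and their SE are edgeR estimates, and means with SD are of CPM after TMM. The fits were tested on simulated data. Tables and figures used Python 3.11.15, pandas 2.3.3 and matplotlib 3.10.9.

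The 10 genes, the related lists and the marker lists were chosen with earlier results of these data known. All 10 genes were named in every tissue, and from each related list those past the threshold in the heart or, where there were none, the 3 with the lowest p there. For each gene the 2 with the most similar profile were named, from centred log2(CPM + 0.5). *Lum*, *Irx4*, *Atp4a*, *Myl7*, *Bmp10* and *Myh6* were named after their values were seen. One gene asked for in the calcium list was not matched and was left out. The alternatives were other scalings and filters, DESeq2 1.42.0, edgeR's exact test, a joint fit, the replicate number as a block, removal of the 10 most abundant genes and each library left out in turn.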

Additional observations from a re-analysis of the deposited data

How the results depend on the processing

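At this depth and with 3 libraries per group, the calls on the 10 genes depended on the test, the filter and single libraries, and some estimates changed sign. Of the counts and medians compared, 201 values stayed the same and 23 moved, and of the values for single genes, 467 kept side and direction, 18 passed the threshold that they had missed and 31 changed sign. In the heart 0 of 10 genes passed in the quasi-likelihood fit, against 3 without a filter on low counts (*Nppb*, *Ctgf* and *Xirp2*), 2 in DESeq2 and 2 in edgeR's exact test (*Nppb* and *Ctgf*), 1 with at least 10 counts in every sample (*Nppb*) and 0 to 1 when a library was left out. Genes called in the heart numbered 137, 1888, 1361, 918 and 265 in the first 5 of these settings and 1 when all libraries shared a fit. In the stomach 0 passed, against 1 without a filter, 1 in DESeq2 and 1 in the exact test (*Timp1* in each), 2 in a fit of all libraries (*Timp1* and *Ankrd1*) and 0 to 1 with a library left out, over which the median ran from 0.36 to 2.06. In the muscle 0 passed, against 1 in a fit of all libraries (*Pln*, adjusted p = 0.0119), 1 in DESeq2 (*Postn*, 0.0384) and 0 to 2 with a library left out, the 2 being *Nppa* and *Nppb* without SN-011 replicate 2, the library with few detected genes. Of all muscle genes, 2.4% passed in the fit of all libraries, 6.2% in DESeq2 and 7.4% without SN-011 replicate 2. In the tongue 0 to 1 passed with a library left out, the 1 being *Ctgf* without control 1, where 12.5% of all tongue genes passed. The change differed between heart and stomach for 0 of the 10 genes, for 1 of 5 tested with at least 10 counts in every sample (*Timp1*), and for 0 to 2 with a library left out, *Xirp2* and *Acta1* without stomach control 1 and *Ankrd1* and *Timp1* without stomach SN-011 replicate 2. Over all genes it differed for 852 of 9624 under that filter. Without stomach control 1 it did for 545 of 20522, and without stomach SN-011 replicate 2 for 1071 of 20480. With at least 10 counts in every sample, which leaves 5 of the 10 genes, 5, 5 and 4 differed in level between heart and stomach, muscle and tongue. Of all 9624 genes, 5303, 4732 and 3532 did.

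Signs turned under library size alone for *Ankrd1* in the heart (-0.13), *Acta1* and *Atp2a2* in the stomach (0.35 and 0.039) and *Xirp2* in the muscle (-0.17), where *Xirp2* was also -0.029 in a fit of all libraries. This scaling moved the median of all genes to -0.16 in the heart, 0.18 in the stomach and -0.31 in the muscle. With a library left out, the log2 fold change ran from -0.13 to 0.25 for *Ankrd1*, -0.0011 to 0.31 for *Atp2a2* and -0.62 to 0.15 for *Timp1* in the heart, and from -0.71 to 5.20 for *Acta1* in the stomach. In the muscle it ran from -1.06 to 0.022 for *Ankrd1*, -0.069 to 0.18 for *Xirp2*, -0.63 to 0.022 for *Ctgf* and -0.22 to 1.41 for *Timp1*. In the tongue it ran from -3.14 to 0.48 for *Nppb*, -0.014 to 0.38 for *Acta1*, -0.13 to 1.03 for *Ctgf*, -0.96 to 0.11 for *Postn* and -0.72 to 0.10 for *Timp1*. Beyond what each setting removes, the cause was not tested.

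The labels number the libraries of each group 1 to 3 but do not say that a number marks a mouse or a day. Over genes, deviations of same-numbered control and SN-011 libraries of a tissue correlated at -0.27 to 0.19, and 1 of 12 pairs exceeded 0.1, so the numbers were not taken to pair the libraries. With the replicate number as a block, 1 of the 10 genes passed in the heart (*Nppb*, log2 fold change 0.96, adjusted p = 0.0415), the number of heart genes called went from 137 to 242, and *Acta1* in the stomach went to 3.39. Between tissues, same-numbered controls correlated at -0.07 to 0.33 (12 of 18 pairs over 0.1, against 2 of 36 with different numbers) and same-numbered SN-011 libraries at -0.04 to 0.06. The joint fit takes the tissues as independent, and with a replicate block by mouse the change differed between heart and stomach for 308 genes in place of 396, with 0 of the 10 among them. Leaving out heart control 1 and SN-011 replicate 3 together, an alternative chosen after seeing the data, gave 0 of 10 genes and a median of 0.23. Exact permutation of 3 against 3 cannot reach 0.05, and fitted changes that rest on control counts near the floor outside the heart depend on the prior count.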
